A study of Mus musculus with 4 samples.

Results

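The 5 genes described here are 2 cytokines of the interleukin-20 subfamily, Il19 and Il24, and 3 receptor chains, Il20ra, Il20rb and Il22ra1. They are 5 of the 32285 genes counted in each tissue section. They were selected by name from earlier results on these same sections, so the levels that led to the choice are given as a description and carry no test. Il20, the remaining ligand of the subfamily, and other relatives are given beside them for context.

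Spatial gene expression was measured with 10x Visium, an array of barcoded spots that captures RNA from a tissue section laid on it; a spot is a small area that can hold several cells. The 4 flash-frozen sections came from wildtype mice, and no treatment other than wounding is named in the labels. They were facial skin labelled unwounded, facial skin at postoperative day 4, oral mucosa labelled unwounded and oral mucosa at postoperative day 4. The comparison addressed is that of wounds in oral mucosa with wounds in facial skin. There was 1 section in each group, neither age nor the number of animals is stated, and no difference below can be set against variation between animals.

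The sections held 430 to 1288 spots and 3004174 to 11939479 unique molecular identifiers (UMIs, counts of captured RNA molecules). The unwounded oral section had a median of 98 UMIs per spot over all its spots and 13797 over the 523 spots with at least 1000, and mitochondrial genes took 2.71% to 20.8% of a section's UMIs. Both unwounded sections held Ddx3y (587 and 280 UMIs) with 1 or 0 UMIs of Xist, and both day 4 sections held Xist (909 and 84) with no Ddx3y. The sex that these genes mark thus coincided with wounding. In day 4 over unwounded, differences that go with sex and with wounding cannot be told apart for any gene. Oral epithelium markers took 4.46% and 3.16% of the UMIs of the oral sections and at most 0.00204% in the facial sections, in keeping with the tissue labels. In part the markers of the facial section labelled unwounded went against its label: neutrophil markers took 0.618% of its UMIs against 0.0296% in the facial day 4 section, and wound keratinocyte markers 1.22% against 0.625%. Macrophage markers were closer, at 0.162% and 0.137%. The facial day 4 section in turn had a region of 91 spots led by Cxcl5, Spp1, S100a9 and Cthrc1, where fibroblast markers took 4.65% of UMIs. Of the regions of the section labelled unwounded, 2 (217 spots, 30.8% of its UMIs) were led by wound keratinocyte or neutrophil genes and are called inflamed here. Each had at least 2 of its 10 leading genes on these marker lists. The ratios of the members and the list counts that rest on this section are given with and without them. Another region, led by late cornified envelope genes, was kept, though wound keratinocyte markers took 2.15% and neutrophil markers 0.945% of its UMIs. Values without the inflamed regions thus do not stand for tissue free of these markers. If the 2 facial labels were exchanged, every facial direction of day 4 over unwounded given below would turn and each comparison between tissues would have the other facial section as its partner; whether they were was not tested. Barcodes come from one fixed set, and 754 of 2711 were used in more than 1 section.

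Interleukins 19, 20 and 24 belong to the interleukin-10 family and signal mainly to epithelial cells. All of them bind a receptor made of the chains encoded by Il20ra and Il20rb, while interleukins 20 and 24 also use one made of Il22ra1 and Il20rb, and both receptors activate STAT3 through JAK kinases. In skin the pathway is known for driving keratinocyte growth and antimicrobial and inflammatory gene expression and for delaying terminal differentiation, in wounds and in psoriasis.

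The ligand genes lie side by side. On mouse chromosome 1 (GRCm38.p6), Il24 (ENSMUSG00000026420) spans chr1:130882074-130887411, Il20 spans chr1:130906985-130911296 and Il19 (ENSMUSG00000016524) spans chr1:130932656-130945457, with gaps of 19573 and 21359 bases between them. The receptor genes lie apart, Il20ra (ENSMUSG00000020007) at chr10:19711673-19760053, Il20rb (ENSMUSG00000044244) at chr9:100457719-100486473 and Il22ra1 (ENSMUSG00000037157) at chr4:135728159-135755383. All 5 are annotated as protein-coding.

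The RefSeq sequence of GRCm38.p6 before the annotated start was available for 4 of the 5 genes, and it is shown for the ligand with the most UMIs and for both chains of the shared receptor, because these genes had unlike places in the tissue. Each run holds the 250 bases before the start, 5′ to 3′ on the gene's own strand. Capitals mark matches, on either strand, to TTCNNNGAA (the STAT motif), TGANTCA (AP-1), ACGTG and GCGTG (hypoxia elements), TATAAA (the TATA box) and the kappa-B motif.
Il19, chr1:130940116-130940365, minus strand: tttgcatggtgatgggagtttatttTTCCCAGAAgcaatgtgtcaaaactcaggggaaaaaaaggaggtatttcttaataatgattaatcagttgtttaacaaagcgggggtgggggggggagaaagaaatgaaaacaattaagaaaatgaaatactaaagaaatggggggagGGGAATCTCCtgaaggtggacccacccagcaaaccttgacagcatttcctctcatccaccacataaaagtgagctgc
Il20ra, chr10:19712337-19712586, plus strand: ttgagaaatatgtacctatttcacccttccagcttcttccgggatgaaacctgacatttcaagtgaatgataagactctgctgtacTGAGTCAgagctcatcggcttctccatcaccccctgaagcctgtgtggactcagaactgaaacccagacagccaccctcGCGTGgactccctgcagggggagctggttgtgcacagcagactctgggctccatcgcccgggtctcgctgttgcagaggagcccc
Il20rb, chr9:100486474-100486723, minus strand: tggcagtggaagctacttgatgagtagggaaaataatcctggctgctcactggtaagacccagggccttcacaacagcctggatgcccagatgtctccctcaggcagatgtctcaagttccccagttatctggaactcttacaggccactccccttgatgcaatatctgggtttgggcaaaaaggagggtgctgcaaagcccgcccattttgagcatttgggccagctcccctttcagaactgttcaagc
The start used for Il19 lies 5342 bases inside its annotated span and that for Il20ra 914 bases inside. The Il19 window holds a STAT match, TTCCCAGAA, at bases 225 to 217 before the start, and a kappa-B match, GGGAATCTCC, at bases 77 to 68, while the Il20ra window holds an AP-1 match, TGAGTCA, at bases 164 to 158 and a hypoxia match, GCGTG, at bases 85 to 81. None of these motifs was found in the Il20rb window. Of all 32851 windows of this length in the table, 7.02% held the STAT motif, 7.25% kappa-B, 6.75% AP-1, 16.6% ACGTG, 28.2% GCGTG and 12.4% TATAAA. A match is a run of letters and says nothing of whether a factor binds there.

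Among the ligands, Il19 was found chiefly in the facial section labelled unwounded and in the wounded oral section. It had 247 UMIs in facial skin labelled unwounded, 4 in facial skin at day 4, 0 in unwounded oral mucosa and 18 in oral mucosa at day 4. Scaled to section totals these were 20.7 CPM (UMIs per 1000000 UMIs of the section; exact 95% Poisson interval 18.2 to 23.4), 0.403 CPM (0.110 to 1.03), 0 (3 UMIs would be 0.412 CPM) and 5.99 CPM (3.55 to 9.47). The intervals of the first and last stand clear of each other and of the rest, and facial day 4 and unwounded oral mucosa cannot be ordered. All intervals here cover counting error only.

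Il24, whose product shares both receptors with interleukin-20, had the same order of sections. Its UMIs were 122, 5, 0 and 14 in the same sequence of sections, or 10.2 CPM (8.49 to 12.2), 0.503 CPM (0.163 to 1.18), 0 and 4.66 CPM (2.55 to 7.82). The facial section labelled unwounded and the oral day 4 section had intervals that did not overlap, and the 2 sections with 5 and 0 UMIs cannot be ordered. Within a section the ratio of Il19 to Il24 UMIs was 2.03 (1.62 to 2.54) in facial skin labelled unwounded and 1.29 (0.604 to 2.79) in wounded oral mucosa, and the intervals overlap.

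**Figure D1:**
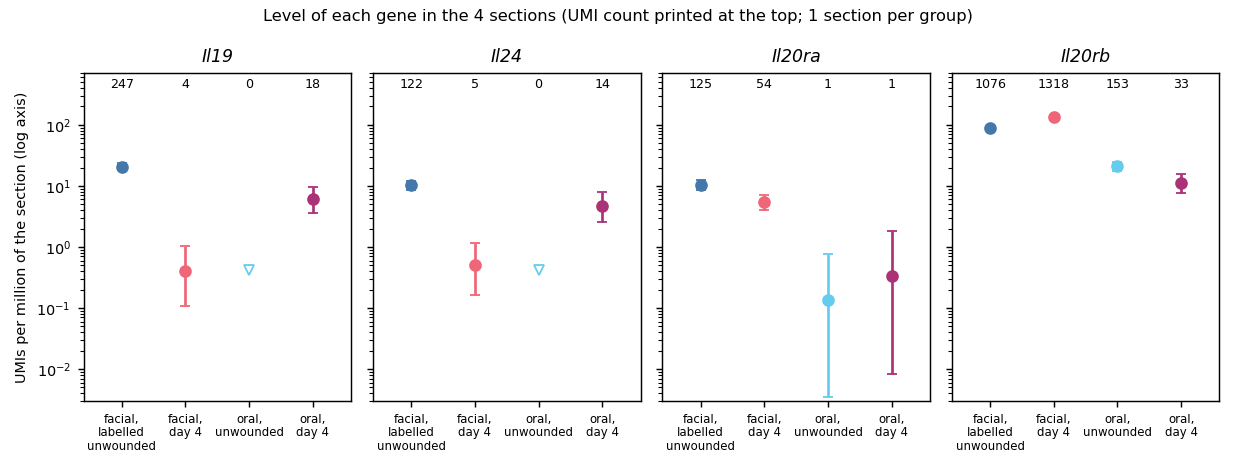
Level of Il19, Il24, Il20ra and Il20rb in each section, in CPM on a log axis, with exact 95% Poisson intervals and the UMI count at the top; an open triangle marks the level that 3 UMIs would give where the count was 0. Il19 and Il24 are high in facial skin labelled unwounded and in oral mucosa at day 4, while Il20rb is highest in both facial sections.

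Of the receptor chains, Il20rb, the chain common to both receptors, was present in every section. It had 1076 UMIs in facial skin labelled unwounded, 1318 in facial skin at day 4, 153 in unwounded oral mucosa and 33 in oral mucosa at day 4. These were levels of 90.1 CPM (84.8 to 95.7), 132.7 CPM (125.6 to 140.0), 21.0 CPM (17.8 to 24.6) and 11.0 CPM (7.56 to 15.4), and no interval overlapped another. Both facial sections lay above both oral sections, whereas for the ligands wounded oral mucosa lay below facial skin labelled unwounded and above facial day 4.

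Il20ra, the partner chain of Il20rb in the receptor shared by all of these ligands, had nearly all of its UMIs in facial skin. Its 125, 54, 1 and 1 UMIs were levels of 10.47 CPM (8.72 to 12.5), 5.44 CPM (4.08 to 7.09), 0.137 CPM (0.00348 to 0.765) and 0.333 CPM (0.00843 to 1.86). The facial intervals did not overlap each other or those of the oral sections, whose single UMIs cannot be ordered. Il22ra1, the partner chain of the alternative receptor, had 1, 1, 0 and 0 UMIs and could not be compared at this depth. The ratio of Il20rb to Il20ra UMIs was 8.61 (7.15 to 10.4) in facial skin labelled unwounded and 24.4 (18.6 to 32.7) at day 4, and these intervals do not overlap.

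Shares of spots gave the same order within each ligand. Il19 was found in 118 of 671 spots of facial skin labelled unwounded (17.6%, exact Clopper-Pearson interval 14.8% to 20.7%), 4 of 1141 at facial day 4 (0.351%), 0 of 1288 in unwounded oral mucosa (3 spots, the floor used here for a count of 0, would be 0.233%) and 8 of 430 in wounded oral mucosa (1.86%). Il24 was found in 52 (7.75%), 5 (0.438%), 0 and 11 (2.56%) spots. After each spot of at least 1000 UMIs was thinned to 1000, the expected shares for Il19 were 1.86%, 0.0400%, 0% and 0.228% and for Il24 1.14%, 0.0294%, 0% and 0.472%, and the order of the facial section labelled unwounded, wounded oral mucosa and facial day 4 was the same after thinning.

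For Il20rb the spots with a UMI were 426 (63.5%), 429 (37.6%), 94 (7.30%) and 24 (5.58%). Thinned to 1000 UMIs the shares were 8.15%, 7.85%, 1.80% and 0.752%, so the gap between the facial sections in the unthinned shares was not seen at equal depth. In the spots poorest in keratinocyte markers, ranked into 4 equal groups among spots of at least 500 UMIs, the share with Il20rb was 52.1%, 8.48%, 2.92% and 3.03%, and in the richest it was 77.1%, 81.2%, 33.8% and 18.4%. In the facial section labelled unwounded the Il19 share was as high in the keratinocyte-poorest spots (18.0%) as in the richest (15.1%), at median depths of 17821 and 19711 UMIs, so the share alone does not separate epithelium from other tissue there.

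Wounding was compared within each tissue first. A gene was measured when the 2 sections held at least 20 UMIs together, and called when its CPM differed at least 1.5-fold with Poisson intervals that did not overlap. In facial skin, day 4 over the section labelled unwounded, 4 of the 5 genes were measured, 3 were called lower and 0 higher. Over all 14231 genes measured 8.59% were called lower and 6.09% higher. Since these contrasts were part of what led to the choice of genes, nothing is read from the excess.

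Il19 was 51.4-fold lower at facial day 4 (log2 ratio of CPM -5.68, interval -7.57 to -4.31) and Il24 20.3-fold lower (-4.34, -5.99 to -3.08). Il20ra was 1.93-fold lower (-0.95, -1.43 to -0.47). Il20rb was 1.47-fold higher (0.56, 0.44 to 0.68) and fell just short of the 1.5-fold line. Without the 2 inflamed regions of the section labelled unwounded, the log2 ratio was -4.57 for Il19 and -2.99 for Il24, both still called lower, Il20ra was at -0.74, also called, and Il20rb passed the line at 0.60. A loss of cells that make a transcript and a loss of transcript per cell cannot be told apart in spots.

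In oral mucosa the ligands lay the other way and the receptor chain was lower. Of the 5 genes only Il20rb reached 20 UMIs over both sections, and it was called lower, as were 3.56% of all 12544 genes measured, while 0 were called higher against 20.6% of all genes. Its level was 1.91-fold lower at day 4 (log2 ratio -0.94, interval -1.52 to -0.38). That call rests on 1 of the 4 parts into which the unwounded section was cut at its median array row and column: without it the log2 ratio was -0.18 (-0.85 to 0.48). Per UMI of keratinocyte markers it was also not called, at -0.71. Against a floor of 3 UMIs, Il19 was at least 14.6-fold higher and Il24 at least 11.3-fold higher at day 4. Neither reached the 20 UMIs needed for a call. Without the oral day 4 part that held 12 of the 18 Il19 and 13 of the 14 Il24 UMIs, the log2 bound for Il19 was 3.09 in place of 3.86, and Il24 fell under the floor. Leaving out 1 of the unwounded oral parts, which raises the floor, gave the lowest bounds, 2.64 for Il19 and 2.28 for Il24.

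Between tissues, 4 of 4 measured genes were called lower and 0 higher in the unwounded oral section, set against facial skin labelled unwounded, beside 59.7% lower and 10.1% higher of 14026 genes. With most genes lower in the oral section, the count of members is not unusual. Il19 was at least 50.2-fold lower and Il24 at least 24.8-fold lower. Il20ra was lower by a log2 ratio of -6.25 (-11.57 to -3.75, from 1 UMI against 125) and Il20rb by -2.10 (-2.36 to -1.86), or 4.29-fold. Without the inflamed regions of the facial section these ratios were -6.05 and -2.06, the bounds for Il19 and Il24 were -4.54 and -3.28, and all 4 genes were still called lower. Without 1 or the other of the unwounded oral parts that held all its Il20rb UMIs, the Il20rb ratio was -2.86 or -1.48. In spots with under 1% skeletal muscle markers the Il20rb ratio shrank to -0.83, still called; muscle markers took 5.16% of the unwounded oral UMIs and 0.117% of the facial ones.

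At day 4 the oral section held more Il19 and less of both receptor chains than the facial section. Of 3 genes measured, 1 was called higher and 2 lower, beside 11.5% higher and 35.5% lower of 13633 genes. Il19 was 14.9-fold higher (log2 ratio 3.90, 2.29 to 5.92). Il24 was 9.26-fold higher (3.21, 1.66 to 5.04) on 19 UMIs over both sections, under the minimum. Il20rb was 12.1-fold lower (-3.59, -4.14 to -3.10) and Il20ra was lower by -4.03 (-9.36 to -1.49, from 1 UMI against 54). The Il19 call was lost on leaving out either of the oral parts that held its UMIs or the facial part with 3 of the 4, since fewer than 20 UMIs then remained, and without the oral part with 13 Il24 UMIs the Il24 log2 ratio was 0.22 (-5.35 to 3.37).

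The UMIs of the ligands were clustered in space. In facial skin labelled unwounded, Il19 or Il24 was found in 151 spots forming 46 patches of touching spots, and the largest patch, of 51 spots, held 243 of 369 UMIs. The 10 richest spots held 36.4% of Il19 and 58.2% of Il24 UMIs. In wounded oral mucosa 17 spots formed 4 patches, and the largest, of 12 spots, held 27 of 32 UMIs. At facial day 4 each of the 9 ligand spots held a single UMI.

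Tissue on the array lay in separate pieces, and ligand levels differed between pieces of one section. The larger piece of facial skin labelled unwounded (519 spots) had 24.3 CPM of Il19 (21.2 to 27.7) and 12.6 CPM of Il24 (10.4 to 15.2), and the smaller (142 spots) had 8.47 CPM (5.37 to 12.7) and 1.47 CPM (0.402 to 3.77). Il20rb differed less, at 88.7 CPM (82.7 to 95.04) and 95.8 CPM (84.5 to 108.2), and those intervals overlap. In wounded oral mucosa all 18 Il19 and all 14 Il24 UMIs lay in the larger piece of 343 spots, where neutrophil markers took 0.481% and wound keratinocyte markers 1.13% of UMIs, beside 0.0538% and 0.371% in the piece of 72 spots without ligand. In the smaller piece 3 UMIs would be 4.30 CPM, against 7.86 CPM of Il19 and 6.11 CPM of Il24 in the larger.

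**Figure D2:**
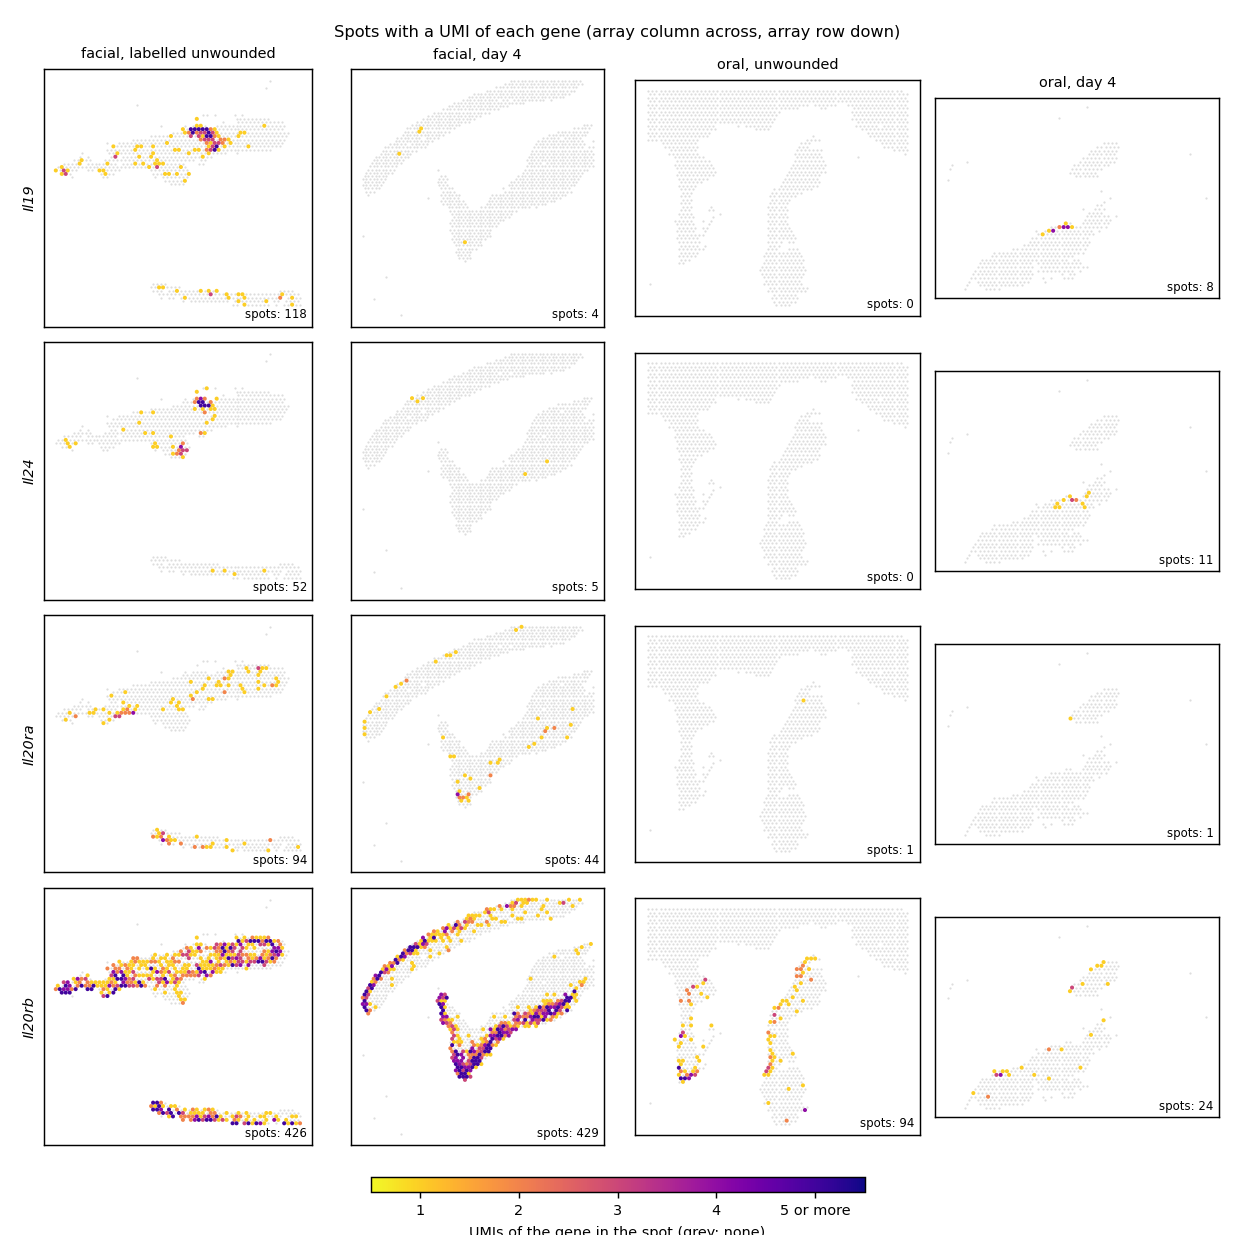
Spots with a UMI of Il19, Il24, Il20ra and Il20rb in each section, drawn by array column and row; colour gives the UMIs of the gene in the spot and grey marks spots under tissue with none. Il19 and Il24 form tight patches in facial skin labelled unwounded and in 1 stretch of wounded oral mucosa, while Il20rb follows long bands of tissue in the facial sections and in unwounded oral mucosa.

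The spots richest in each ligand overlapped in part. In facial skin labelled unwounded 11 spots held at least 5 UMIs of Il19 (5 to 20, median 7) and 5 held at least 5 of Il24 (6 to 14, median 12), and 3 spots were in both sets. All 5 of the Il24-rich spots held some Il19, 28 UMIs in all. Il19 and Il24 were found together in 19 spots, where the product of their shares within depth classes gives 8.91, and in wounded oral mucosa in 2 spots, against 0.302. Il24 shared 36.5% of its spots with Il19 in facial skin, and Il19 shared 16.1% of its spots with Il24.

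Regions found by clustering the spots of each section, with these 5 genes left out, placed the ligands further. In facial skin labelled unwounded, Il19 was highest in region 3, led by Stfa3, Stfa1, Areg and the wound keratins Krt6a and Krt6b, with 157 UMIs or 49.0 CPM (41.6 to 57.2), and that region held 61 UMIs of Il24 or 19.0 CPM (14.6 to 24.4). Il24 was highest in region 6, led by the chemokine gene Cxcl2, the cytokine gene Il1b, Cd14 and the neutrophil marker Clec4d, at 59.2 CPM (39.4 to 85.6, 28 UMIs), where Il19 had 23.3 CPM (11.6 to 41.6, 11 UMIs). The ratio of Il19 to Il24 UMIs was 2.57 (1.90 to 3.52) in region 3 and 0.393 (0.176 to 0.814) in region 6, so the mix of the ligands differed between these regions beyond counting error. Neighbouring spots share tissue, and the spread between animals of this contrast was not measured.

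These inflamed regions held 68.0% of the Il19 and 73.0% of the Il24 UMIs of the section but 32.8% of the Il20rb UMIs. Marker shares alone did not set the ligand-rich regions apart: region 2, led by late cornified envelope genes, had 2.15% wound keratinocyte and 0.945% neutrophil marker UMIs, beside 1.825% and 0.926% in region 3, and only 4.10 CPM (1.77 to 8.07) of either ligand. The other 454 spots still had 9.57 CPM of Il19 (7.57 to 11.9) and 4.00 CPM of Il24 (2.75 to 5.61), above the facial day 4 levels. Regions led by the sebaceous genes Fa2h and Elovl3 (17.1 CPM of Il19) and by the hair follicle keratin gene Krt71 (13.5 CPM) had higher values of Il19 than the region led by muscle genes Acta1 and Myh1 (6.76 CPM), but the intervals overlap (8.76 to 24.4 and 2.92 to 13.3).

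In wounded oral mucosa 1 region held nearly all ligand UMIs. Region 5, of 45 spots, led by Krt17, Krt16, several Sprr genes and Ppbp, held all 18 Il19 UMIs (39.2 CPM, 23.2 to 61.9) and 11 of the 14 Il24 UMIs (23.9 CPM, 11.95 to 42.8). The other 3 Il24 UMIs lay in region 6, led by Reg3g, Ccl2 and Spp1 (14.7 CPM, 3.03 to 43.0). Of the 10 leading genes of region 5, 5 are on the wound keratinocyte list, genes known from migrating and stressed epithelium. Region 5 also had the highest neutrophil marker share among the regions of that section, 1.66% of its UMIs, beside 0.896% in region 6. Which cells there held the ligand UMIs was not tested. At facial day 4 the region led by Cxcl5, Spp1, S100a9 and Cthrc1 (91 spots) had no UMI of either ligand. With finer clustering (Leiden resolution 1) the rule for inflamed regions also marked facial day 4 regions of 58 and 88 spots. Wound keratinocyte markers took 1.595% and 1.36% of their UMIs. They held 2 and 0 UMIs of Il19, and 2 UMIs each of Il24.

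The receptor chains were spread more widely than the ligands, and were also present in the ligand-rich regions. In facial skin labelled unwounded Il20rb was highest in region 5, led by Fcgbp, Krt77, Ccl27a and the Langerhans cell gene Cd207, at 155.5 CPM (136.3 to 176.6), followed by region 2, led by the late cornified envelope genes Lce3e and Lce3f, at 118.3 CPM (103.5 to 134.6). The ligand-rich region 3 had 99.5 CPM (88.9 to 111.0), region 6 had 71.9 CPM (49.8 to 100.5) and the muscle region 26.2 CPM (17.8 to 37.2). The intervals of regions 5 and 2 do not overlap, those of regions 2 and 3 do. Il20ra was at 16.9 CPM (11.6 to 23.7) in region 2, 15.3 CPM (11.3 to 20.2) in region 3 and 15.2 CPM (9.61 to 22.7) in region 5, which cannot be ordered, and at 2.12 to 5.95 CPM in the other regions. Region 3, with 26.9% of the section's UMIs, held 39.2% of the Il20ra and 29.65% of the Il20rb UMIs. In both inflamed regions together Il20ra was at 13.6 CPM (10.08 to 17.9) and Il20rb at 95.9 CPM (86.2 to 106.5), beside 9.08 CPM (7.14 to 11.4) and 87.5 CPM (81.3 to 94.2) in the other spots, and the intervals overlap for each chain.

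In the other sections the highest level of Il20rb lay in a region led by epithelial genes. At facial day 4 it reached 192.7 CPM (180.0 to 206.1) in region 2, led by Stfa3, Krt14 and Krt1, and 181.5 CPM (156.9 to 208.9) in the region led by Lce1h, and 29.7 CPM in the muscle region. In unwounded oral mucosa it was highest, at 67.8 CPM (53.0 to 85.5), in the region led by Krt15, Krt5 and the proliferation gene Mki67, and 2.78 CPM in the muscle region led by Myh8. In wounded oral mucosa it was 23.2 CPM (11.1 to 42.6) in the region led by Lce1a2 and 8.70 CPM (2.37 to 22.3, 4 UMIs) in the ligand-rich region 5, which held no UMI of Il20ra. The most Il20rb UMIs there, 13 of 33, lay in region 2, led by Postn, Myh4 and Mybph, where skeletal muscle markers took 3.56% of UMIs, at 18.8 CPM (10.00 to 32.1), and the intervals of these 3 regions overlap. With finer clustering (Leiden resolution 1) the highest level in that section was 49.0 CPM (25.3 to 85.7, 12 UMIs). It lay in 27 spots led by Chil4 and Mir205hg, with 1.53% suprabasal keratinocyte and 1.005% skeletal muscle markers. The region then led by Postn, Myh4 and Mybph held 1 UMI (2.86 CPM, 0.0724 to 15.9).

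**Figure D3:**
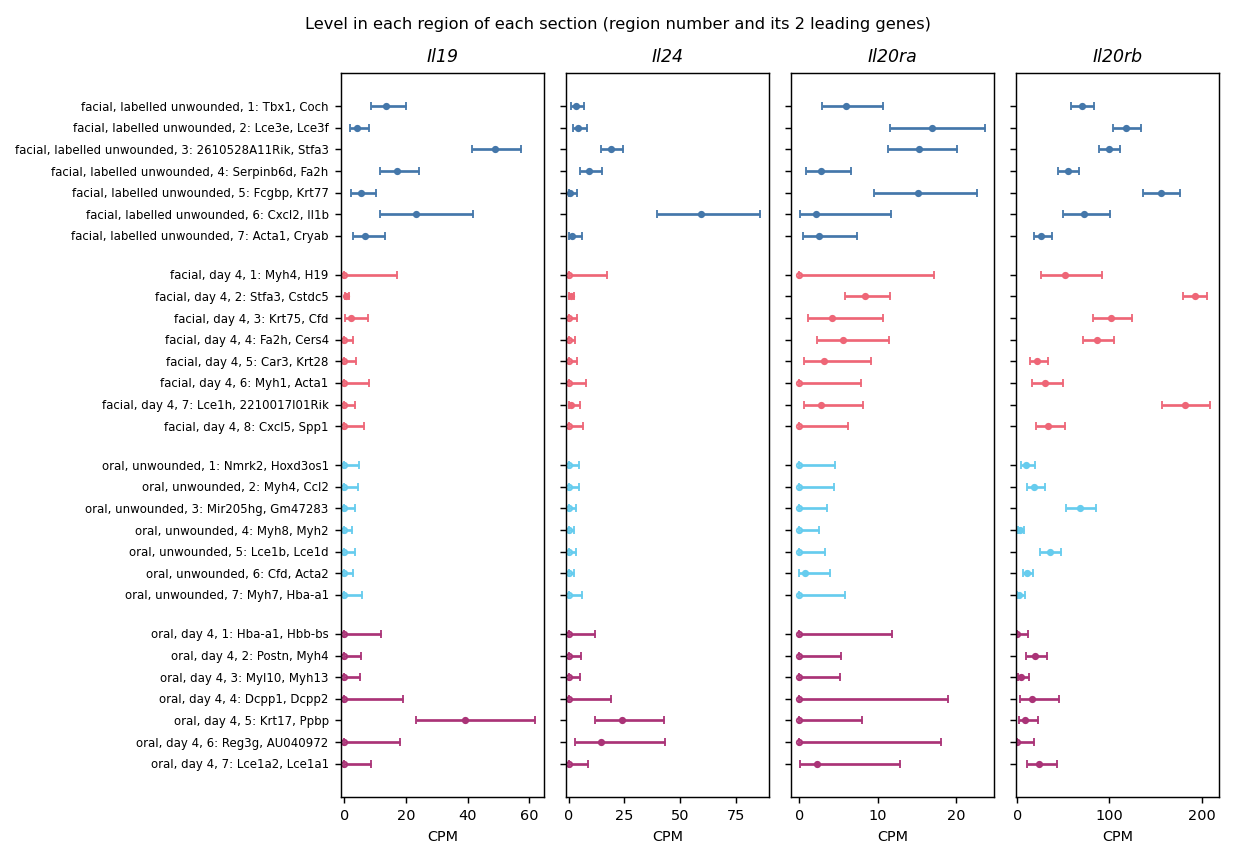
Level of Il19, Il24, Il20ra and Il20rb in each of the 29 regions of the 4 sections, in CPM with exact 95% Poisson intervals; rows are named by section, region number and 2 leading genes. Il19 peaks in region 3 of facial skin labelled unwounded and region 5 of wounded oral mucosa, Il24 peaks in region 6 of the former, and Il20rb peaks in other regions.

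Ranking the spots of facial skin labelled unwounded by marker lists, in 4 equal groups from poorest to richest, showed all 4 genes higher where wound keratinocyte markers were richest. From the poorest to the richest group in wound keratinocyte markers, Il19 went from 8.72 CPM (5.88 to 12.4) to 37.2 CPM (30.7 to 44.7) and Il24 from 1.74 CPM (0.640 to 3.79) to 31.6 CPM (25.6 to 38.6). Il20ra went from 6.10 CPM (3.78 to 9.33) to 14.2 CPM (10.2 to 19.1) and Il20rb from 65.1 CPM (56.8 to 74.2) to 102.7 CPM (91.6 to 114.7). The richest group held 78.7% of all Il24 UMIs counted. For neutrophil markers the ends were 7.18 and 45.4 CPM for Il19 and 1.20 and 28.3 CPM for Il24, while Il20ra had 8.68 and 8.69 CPM and Il20rb 75.1 (66.1 to 85.0) and 100.2 CPM (88.5 to 113.0). Along basal keratinocyte markers all 4 genes were also higher at the rich end, Il19 from 9.59 to 38.3 CPM, Il24 from 5.29 to 15.2, Il20ra from 3.31 to 16.1 and Il20rb from 51.9 to 108.4, with intervals apart for each. Wound keratinocyte and neutrophil markers are rich in the same regions, and their separate parts in the ligand levels were not tested.

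Along suprabasal keratinocyte markers the ligands and receptors parted. Il19 was 12.3, 32.2, 36.4 and 6.63 CPM over the 4 groups and Il24 3.68, 34.2, 8.17 and 0.904 CPM, so both were lowest or near lowest where suprabasal markers were richest. Il20ra was 1.84, 8.66, 13.6 and 17.5 CPM and Il20rb 42.7, 73.8, 107.9 and 132.9 CPM, each higher in every next group. At facial day 4 Il20rb went from 16.3 CPM to 196.6 CPM between the same ends and in unwounded oral mucosa from 2.51 to 50.9 CPM. In wounded oral mucosa all 18 Il19 UMIs lay in the group richest in suprabasal markers, and that section held few suprabasal UMIs in all (0.728% of its total). The groups are cut within each section, so the richest group need not hold like tissue in both. Between oral day 4 regions, region 7, led by Lce1a2 and with 2.31% suprabasal markers, held no Il19 UMI (upper limit 8.55 CPM). Region 5, with 1.215%, held all 18.

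**Figure D4:**
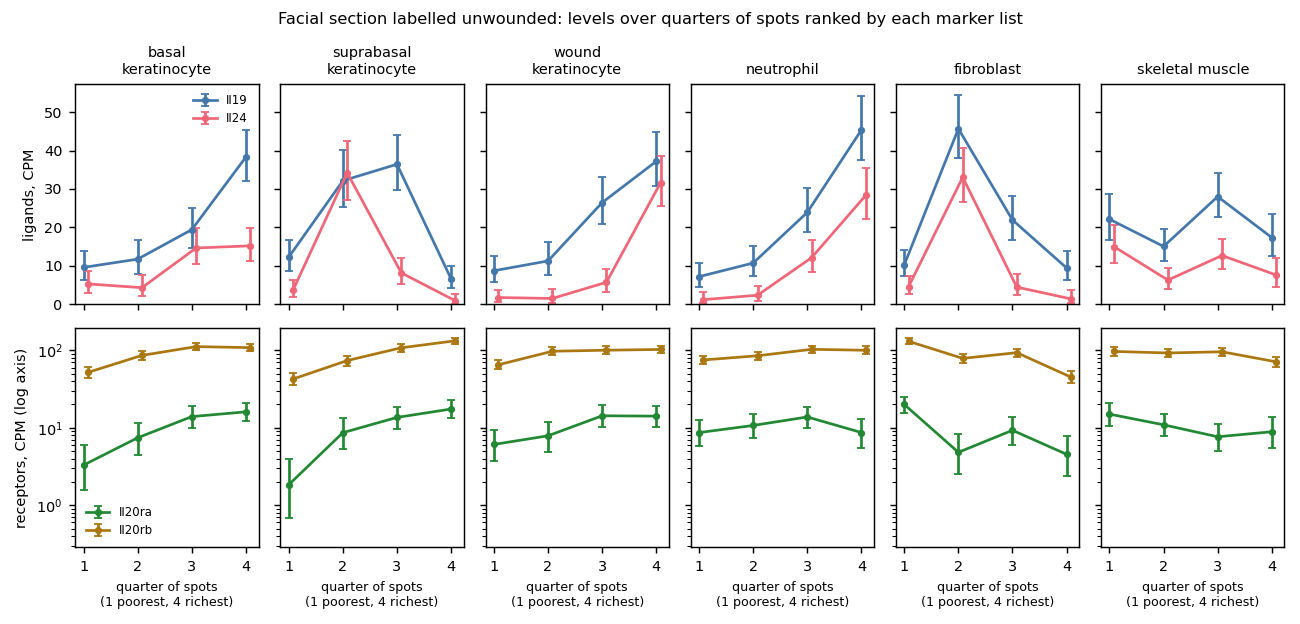
Levels in facial skin labelled unwounded over 4 equal groups of spots ranked by each marker list, ligands above on a linear axis and receptors below on a log axis, in CPM with exact 95% Poisson intervals. All 4 genes are higher at the rich end of wound keratinocyte markers, while along suprabasal markers Il20ra and Il20rb climb from 1.84 to 17.5 and from 42.7 to 132.9 CPM and the ligands are low at the rich end.

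Distance from the ligand was also counted. In facial skin labelled unwounded Il20rb was 76.2 CPM (66.6 to 86.8) in spots that held a ligand UMI and 92.0, 87.2, 116.4 and 112.4 CPM at 1, 2, 3 and at least 4 array steps. Only the interval at 3 steps (97.1 to 138.4) stood clear of that in the ligand spots. Spots at 4 or more steps had a median of 3019 UMIs. Il20ra was 7.45 CPM (4.67 to 11.3) in the ligand spots and 21.8 CPM (14.0 to 32.5) at 3 steps, and those intervals do not overlap. Its intervals at 1, 2 and at least 4 steps overlapped that of the ligand spots. Suprabasal markers were also more abundant farther away, from 3.14% of UMIs in the ligand spots to 4.83% at 3 steps, and their part in the receptor levels was not tested. Among spots that held or touched a ligand spot 64.0% had Il20rb, against 64.1% of other spots at the same depths, and for Il20ra the shares were 11.8% and 18.0%.

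In facial skin labelled unwounded, receptor and ligand UMIs met in the same spot somewhat less often than the product of their shares gives, with no test of the gap. Il19 and Il20rb were found together in 80 spots, against a product of shares of 82.6, and Il24 and Il20rb in 30 against 33.2. For Il20ra the gap was wider in proportion, with 15 spots against 19.1 for Il19 and 5 against 8.02 for Il24. The receptor chains met each other in 78 spots, against 69.6, and 83.0% of Il20ra spots held Il20rb. In wounded oral mucosa 1 of 8 Il19 spots and 0 of 11 Il24 spots held Il20rb, against products of 1.07 and 0.942.

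**Figure D5:**
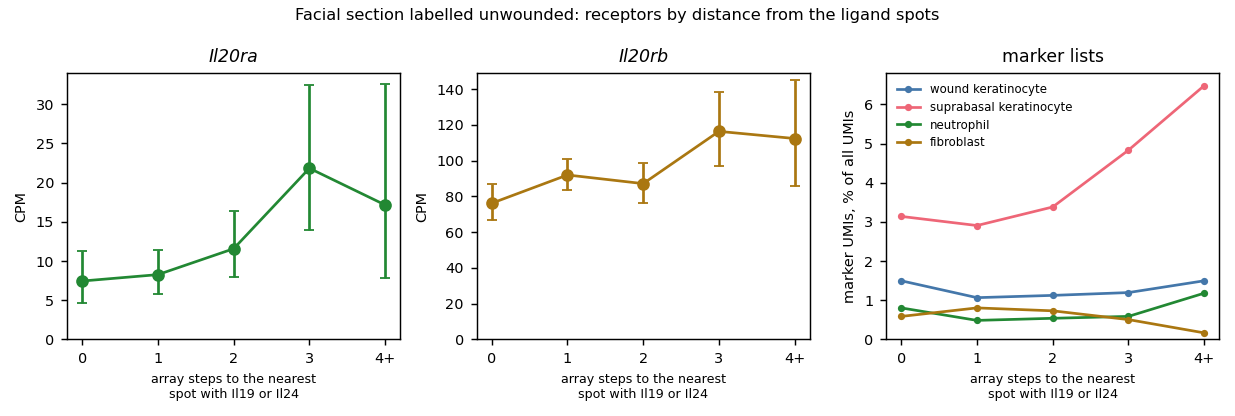
Il20ra and Il20rb in facial skin labelled unwounded by array steps to the nearest spot with Il19 or Il24, in CPM with exact 95% Poisson intervals, and the share of UMIs taken by 4 marker lists at the same distances. Both receptor chains have their lowest values in the ligand spots (7.45 and 76.2 CPM), with intervals that stand clear only of those at 3 steps. Suprabasal markers are more abundant farther away.

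The genes most like each member were taken by the Pearson correlation of log2(CPM + 10) over the 29 regions, among 12089 genes; the regions share sections and depth, so r is a description. For Il19 they were Nppb (r = 0.845), Stom (0.817), the growth factor gene Areg (0.811), the neutrophil chemokine gene Cxcl1 (0.795) and the cytokine gene Clcf1 (0.781), and Il24 itself had 0.802. For Il24 they were Acod1 (0.922), the prostaglandin synthase gene Ptgs2 (0.919), the granulocyte growth factor gene Csf3 (0.917), Clec4e (0.902) and Trem1 (0.898), some of them known from activated myeloid cells. At Leiden resolution 1, with 42 regions, Clec4e and Trem1 were no longer among the 5 genes most like Il24. There the r of Il24 with Il19 was 0.681. For Il20ra they were Il22ra2 (0.907), which encodes the soluble interleukin-22 binding protein, Fcgbp (0.892), the chemokine gene Ccl20 (0.877), Prss53 (0.874) and Clca3a2 (0.869). For Il20rb they were the gap junction gene Gjb5 (0.941), Tmem45a (0.941), Ankrd35 (0.931), the phospholipase gene Pla2g2f (0.928) and Ano9 (0.927). At resolution 1 Clcf1 was no longer among the genes most like Il19, nor Ccl20 and Prss53 for Il20ra, nor Ano9 for Il20rb. The receptor chains had r = 0.714 with each other, and Il20rb had 0.248 with Il19 and 0.0906 with Il24.

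Other ligands of the family were scarce. Il20, which lies between Il24 and Il19, had 20, 6, 0 and 0 UMIs, in the order of sections used above, and Il22, made by lymphocytes and acting on the same cells, 6, 1, 0 and 1. Il10, the anti-inflammatory founder of the family, had 26, 11, 0 and 3. Of the other receptors, Il10rb, shared by the interleukin-10 and interleukin-22 receptors, had 637, 440, 134 and 87 UMIs. In facial skin 2 of 4 such genes were called lower at day 4, Il22ra2 by 2.48-fold and Il10ra, the interleukin-10 receptor of leukocytes, by 1.89-fold, and without the inflamed regions the same count was lower. In oral mucosa 2 of 3 measured were called higher, Il10ra by 3.98-fold and Il10rb by 1.57-fold. Over all genes measured, 8.59% were called lower and 6.09% higher at facial day 4, or 10.8% and 4.3% without the inflamed regions. At oral day 4 the shares were 20.6% higher and 3.56% lower. These shares also stand beside the counts of day 4 over unwounded for the lists that follow.

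Among JAK-STAT genes, which carry the receptor's signal, the feedback inhibitor Socs3 had the widest difference between day 4 and the section labelled unwounded in both tissues. In facial skin 0 of 17 were called higher and 3 lower at day 4, Socs3 by 4.22-fold (from 90.4 to 21.4 CPM), Socs1 by 1.93-fold and Stat5a by 1.83-fold, and the median log2 ratio (10 CPM added) was -0.23, beside -0.03 over all measured genes. Without the inflamed regions 4 were called lower and 0 higher (median -0.26, beside -0.05), and Socs3 was 3.70-fold lower. In oral mucosa 9 were called higher and 1 lower, with a median of 0.41 beside 0.17, among them Socs3 at 7.07-fold higher (from 6.45 to 45.6 CPM), Socs2 at 2.19-fold and Stat3 at 1.63-fold, while Cish, another feedback inhibitor, was 2.38-fold lower. Socs3 thus lay on the same side as Il19 and Il24 in both tissues, in facial skin only as far as the labels hold.

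Cytokines known to act upstream of the subfamily were mostly lower at facial day 4, and in oral mucosa their count was near that of all genes. In facial skin 7 of 10 measured were called lower and 0 higher at day 4 (median -0.73), with Il1b 33.3-fold lower, Osm 18.7-fold and Tnf 11.2-fold. Without the inflamed regions 7 of 10 were again lower and 0 higher (median -0.54), with Il1b 11.6-fold, Osm 8.76-fold and Tnf 6.01-fold lower. In oral mucosa 2 of 7 were called higher and 0 lower, beside 20.6% of all genes called higher, and the median of 0.24 was close to the 0.17 of all genes. These 2 were Il1b at 134.4-fold and Il6 at least 21.8-fold. Leukocytes are a main source of Il1b, Osm and Tnf, and neutrophil markers made up 0.618% of the UMIs of facial skin labelled unwounded, 0.0296% at facial day 4, 0.00409% in unwounded oral mucosa and 0.384% at oral day 4. Their part in these differences was not tested.

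Keratinocyte response genes, which include antimicrobial, chemokine and stress keratin genes induced by the subfamily, had the widest medians of the 6 pathway lists in both tissues, in opposite directions. In facial skin 22 of 24 were called lower and 0 higher at day 4, with a median log2 ratio of -1.24: Cxcl2 was 98.02-fold lower, S100a8 40.7-fold, Saa3 33.9-fold and S100a9 20.8-fold. Without the inflamed regions 17 of 23 were called lower and 0 higher (median -1.03), with Cxcl2 29.6-fold, S100a8 25.2-fold, Saa3 43.3-fold and S100a9 12.95-fold lower. In oral mucosa 16 of 23 were called higher and 0 lower, with a median of 0.999: Cxcl5 was 263.6-fold higher, S100a9 212.5-fold, S100a8 91.8-fold and Krt17, a stress keratin, 16.7-fold. The genes named are those with the largest log2 ratios after 10 CPM was added to both sides, which favours abundant genes. S100a8 and S100a9 are also abundant in neutrophils, and neutrophil markers had wider medians still, with 10 of 10 called lower in facial skin (-1.61) and 10 of 10 higher in oral mucosa (1.645).

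In facial skin keratinocyte differentiation genes, known to be held down by these cytokines, were more often called higher than lower at day 4. There 6 of 12 were called higher and 1 lower at day 4 (median 0.57), with Krt2 4.85-fold higher, Flg2 3.07-fold, Krt10 2.31-fold and Krt1 1.86-fold. Without the inflamed regions 7 were called higher and 0 lower (median 0.63). Suprabasal keratinocyte markers, which share Krt1, Krt10, Dsc1 and Dsg1a with this list, took 5.09% of UMIs at facial day 4 and 3.41% in the section labelled unwounded. The part of tissue composition and that of the ligands in these counts were not tested. In oral mucosa 1 of 9 was called higher, Flg at 21.1-fold, and 2 lower, Krt10 by 3.84-fold and Dsc1 by 1.95-fold, with a median of -0.06. These lists were drawn up with the facial and oral results known, and their counts are not independent of the ligand values.

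Between the unwounded sections, most genes of these lists were lower in oral mucosa, as were most genes in all, with 59.7% called lower and 10.1% higher. In oral over facial skin labelled unwounded 13 of 17 JAK-STAT genes and 10 of 10 measured cytokines were called lower and 0 higher, with medians of -0.996 and -1.14 beside -0.47 over all genes, and keratinocyte response genes had 16 lower and 4 higher of 24 (median -1.81). Without the inflamed facial regions the counts lower were 14, 10 and 17, with 0, 0 and 6 higher. At day 4 the response genes lay the other way, with 15 of 24 called higher in oral mucosa and 1 lower (median 1.18, beside -0.27). Over all genes 11.5% were called higher and 35.5% lower there. Among the response genes called higher were the protease inhibitor genes Slpi at 211.3-fold and Serpinb3a at 196.9-fold. The defensin gene Defb4, which had no UMI at facial day 4, was at least 1280.8-fold higher. These named genes were already higher between the unwounded sections, Slpi by 21.2-fold, Serpinb3a by 13.7-fold and Defb4 by 125.4-fold. None of them was called in oral day 4 over unwounded. They do not stand for all response genes called higher. S100a8, next in size of log2 ratio, was 23.6-fold higher in oral mucosa at day 4 but 158.7-fold lower between the unwounded sections. It was called higher in oral day 4 over unwounded. The receptor chains Il20ra and Il20rb did not follow that list, and were lower in the oral section in both comparisons. Differentiation genes of the skin type were lower in oral mucosa in both, with 9 and 10 of 12 called lower and 1 higher in each, Krt1 and Flg among the lower, and the former counts were the same without the inflamed facial regions.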

How the data were processed

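Each section was deposited by the authors as raw UMI counts per gene and spot, which per the file headers came from Space Ranger 1.3.1. Seurat and the mm10 build also stand in the submitters' processing notes. The annotation release is not given in the sources used. Counts were summed per section over all spots under tissue and scaled to CPM, with exact 95% Poisson intervals; 78 genes share a symbol with another gene. With 1 section per group no test was made, and spots were not treated as replicates. Call rule: at least 20 UMIs, 1.5-fold, intervals apart. It was tested on simulated data. Regions came from spots of at least 100 UMIs (10000 UMIs per spot, 2000 variable genes, 30 components, 15 neighbours, Leiden resolution 0.5, scanpy 1.11.5). Of 213 list genes 212 were matched, 3 through a synonym.

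Members and lists were chosen with earlier results of these data known. Named genes were the members, up to 4 called genes per list and comparison with the largest log2 ratio after adding 10 CPM, and the 5 genes most like each member. Alternatives covered the section total (edgeR 4.0.16 TMM, other totals), spot filters, thresholds, section parts, ranking groups and resolution. The values by tissue piece, the spots with at least 5 UMIs of a ligand, the ligand ratios by region, the list counts without the inflamed regions and the choice of motifs were added after the levels had been seen.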

Additional observations from a re-analysis of the deposited data

Results flagged for a closer look

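The ratio of day 4 over the section labelled unwounded ran opposite ways in the 2 tissues for 3 genes, and the difference between tissues was not tested, since each group is 1 section. Il19 had a log2 ratio of day 4 over unwounded of -5.68 in facial skin and of at least 3.86 in oral mucosa. Il24 had -4.34 in facial skin and at least 3.50 in oral mucosa. Il20rb had 0.56 in facial skin and -0.94 in oral mucosa. The Il20rb ratio in facial skin was not called. The opposite directions rest on the facial labels: an exchange of those labels would turn each facial sign and remove the opposition.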

How the results depend on the processing

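Of 213 alternative values of 15 log2 ratios, none reversed a called ratio, and 170 lay within the counting interval of the reported value. Day 4 over unwounded, facial skin: Il24 moved to -2.99 without the inflamed regions, Il20ra to -1.48 as a mean over spots, and Il20rb to 0.35 per keratinocyte-marker UMI and 0 as a mean over spots. The count of members higher there was 1, not 0, with TMM, with the total without mitochondrial and the 50 most abundant genes, and without the inflamed regions, each time through Il20rb. Day 4 over unwounded, oral mucosa: in spots under 1% muscle markers the bounds were 2.91 for Il19 and 2.55 for Il24. With no minimum 2 members were higher there, and the count lower was 0 at a fold of 2 and 0 per keratinocyte-marker UMI.

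Unwounded oral over facial skin: with TMM Il19 was at -4.89, Il24 at -3.87 and Il20rb at -1.34. With the reduced total they were at -5.29, -4.27 and -1.74, and in spots under 1% muscle markers at -3.75, -2.74 and -0.83, with Il20ra at a bound of -2.77. Without the inflamed regions Il19 was at -4.54 and Il24 at -3.28. Oral over facial at day 4: Il20rb was at -2.89 in spots under 1% muscle markers and -2.94 as a mean over spots. A minimum of 100 UMIs left 0 members higher and 1 lower, and no minimum gave 2 higher.

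Leaving out 1 of the 4 parts of a section gave these ranges. For facial day 4 Il20rb ran from 0.30 to 0.76 and the members higher from 0 to 1. For oral day 4 the Il19 bound ran from 2.64 to 4.75, that of Il24 from 2.28 to 4.38, Il20rb from -1.56 to -0.18 and the members lower from 0 to 1. For the unwounded sections Il19 ran from -5.96 to -4.43, Il24 from -4.92 to -3.41, Il20ra from -6.49 to -3.45 (a bound) and Il20rb from -2.86 to -1.48. For oral over facial at day 4 Il24 ran from 0.22 to 4.13 and the members higher from 0 to 1. Where the cause is not the smaller count left, the cause was not tested. A mean over spots gives no count interval and so no call.

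No paired analysis was possible because each group holds 1 section. Oral ligand counts (18 and 14 UMIs) and single Il20ra and Il22ra1 UMIs limit what depth can show.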
